A study of Mus musculus with 4 samples.

Results

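The colony-stimulating factor (CSF) and vascular endothelial growth factor (VEGF) genes examined here are 10 named mouse genes: the M-CSF receptor gene Csf1r and its ligand gene Csf1, the GM-CSF receptor genes Csf2ra and Csf2rb, the interleukin-3 receptor gene Csf2rb2, the G-CSF receptor gene Csf3r, the VEGF receptor genes Kdr and Flt1, the co-receptor gene Nrp1, and the ligand gene Vegfa. They were taken by gene name from a table of 22417 genes, and all 10 were present. Ribosome-protected mRNA fragments (footprints) had been counted in 4 libraries of bone marrow derived monocytes, the precursors of macrophages and osteoclasts, each after 3 days of RANKL, the cytokine that drives osteoclast formation. In 2 libraries the cells were from wild-type (WT) mice, and in 2 from conditional knockout (cKO) mice for Nat10, whose product acetylates cytidine in RNA. The series asks how the loss of Nat10 changes translation during osteoclast formation. The genes are related by function but were selected on values already seen, their counts in the cKO against the WT libraries, so those differences and the p-values of the fit over all genes are printed for them as a description and support nothing. The sources used here do not give the driver of the knockout, the part of Nat10 it removes, the age of the mice or whether replicates were separate animals, and p-values measure only the spread between these libraries, which may be technical.

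M-CSF, made from Csf1, binds the receptor tyrosine kinase encoded by Csf1r and keeps monocytes, macrophages and osteoclast precursors alive and dividing. With RANKL it is required for osteoclasts to form. GM-CSF and interleukin-3 signal through an alpha chain and a shared beta chain to JAK2 and STAT5 and can steer the same precursors away from the osteoclast fate, while G-CSF is known chiefly for neutrophil production. VEGF-A binds the tyrosine kinases made from Kdr (VEGFR2) and Flt1 (VEGFR1) with Nrp1 as co-receptor, and is best known from blood vessels, although Flt1 also serves monocytes and macrophages. A footprint count reflects both the amount of an mRNA and how often it is translated, and without a matched mRNA measurement in use here these cannot be told apart. Fewer cells of a type and less RNA per cell cannot be told apart either.

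The libraries differed in depth and in likeness. Totals ran from 906937 to 3014620 counts, and WT replicate 2, the deepest, detected 9402 genes where the others detected 10508 to 10798. The correlation of log2 CPM (counts scaled to a common library total) across genes was 0.923 between the cKO libraries and 0.797 between the WT libraries, and WT replicate 1 correlated more with the cKO libraries (0.862 and 0.876) than with its partner. For Nat10 itself there were 77 and 148 counts in WT and 101 and 72 in cKO (log2 fold change -0.18, standard error (SE) 0.41), so its counts do not check the genotype labels, and each direction below is a difference between libraries by their label. All 12 monocyte and macrophage markers and all 10 osteoclast markers had counts. Of 16 endothelial markers, 10 were at 0 in every library, among them Cdh5, Tek, Tie1 and Cldn5.

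Promoters of 8 of the 10 genes were found in a RefSeq table (build GRCm38.p6); Csf1r and Csf2rb had no entry. The 250 bases before the start are shown for Csf1, Kdr, Csf3r and Vegfa (the more upstream of its 2 listed starts), because these are the genes other than Csf1r whose WT and cKO libraries did not overlap. Capitals mark matches, on either strand, to any of 7 motifs: the TATA box TATAAA, the CCAAT box CCAAT, the GC box GGGCGG, the PU.1 site GAGGAAGT, the AP-1 site TGAGTCA, the NF-kappa-B site GGGACTTTC, and the hypoxia element ACGTG or GCGTG.
Csf1 promoter (chr3:107760470-107760719, minus strand): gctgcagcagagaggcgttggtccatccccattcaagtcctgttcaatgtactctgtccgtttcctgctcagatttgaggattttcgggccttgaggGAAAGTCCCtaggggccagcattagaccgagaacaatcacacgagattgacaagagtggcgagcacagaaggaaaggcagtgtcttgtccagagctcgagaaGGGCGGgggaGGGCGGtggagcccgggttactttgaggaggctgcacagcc
Kdr promoter (chr5:75978456-75978705, minus strand): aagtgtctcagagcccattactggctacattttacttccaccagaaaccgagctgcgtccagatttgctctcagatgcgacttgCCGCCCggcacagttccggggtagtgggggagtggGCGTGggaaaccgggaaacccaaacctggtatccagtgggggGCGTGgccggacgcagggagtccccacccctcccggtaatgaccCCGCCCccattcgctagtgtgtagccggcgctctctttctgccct
Csf3r promoter (chr4:126024409-126024658, plus strand): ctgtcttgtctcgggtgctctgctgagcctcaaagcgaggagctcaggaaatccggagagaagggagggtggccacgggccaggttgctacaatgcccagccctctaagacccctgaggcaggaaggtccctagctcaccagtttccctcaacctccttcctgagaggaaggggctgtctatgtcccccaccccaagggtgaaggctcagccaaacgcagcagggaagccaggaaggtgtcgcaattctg
Vegfa promoter (chr17:46032378-46032627, minus strand): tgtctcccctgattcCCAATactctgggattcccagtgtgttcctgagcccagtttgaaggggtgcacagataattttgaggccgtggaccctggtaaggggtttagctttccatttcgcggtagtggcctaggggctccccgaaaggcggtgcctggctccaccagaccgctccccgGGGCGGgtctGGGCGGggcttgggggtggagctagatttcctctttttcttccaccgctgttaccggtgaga
The Csf1 window held the NF-kappa-B letters on the reverse strand, 153 to 145 bases before the start, and 2 GC boxes, 51 to 46 and 41 to 36 bases before it. Among 32851 promoter windows of the same length, 0.289% held these NF-kappa-B letters and 32.7% a GC box. The Kdr window held 2 GC boxes and 2 hypoxia elements, found in 38.6% of windows, and none of the other motifs. The Vegfa window held 2 GC boxes and a CCAAT box, which 33.8% of windows held, and its second listed window held 2 hypoxia elements, a GC box and a CCAAT box. The Csf3r window matched none of the 7 motifs. TATAAA (12.4% of windows), GAGGAAGT (2.44%) and TGAGTCA (4.46%) matched none of the 4 windows printed. A match is a string of letters and not a measured binding site, and a window without one says nothing about the factor. Overlaps between motifs were not removed, and none occurred in these 4 windows.

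Of the 10 genes, 9 had enough counts to be tested, 1 rose and 1 fell in the libraries labelled cKO, and 7 did not pass. The threshold was an adjusted p of 0.05 in edgeR's quasi-likelihood test with Benjamini-Hochberg adjustment over 7953 genes, of which 1.40% passed (0.641% higher and 0.754% lower). Kdr rose and Csf1r fell. The WT and cKO libraries did not overlap in 2 genes that were higher in cKO, Kdr and Csf3r, and in 3 that were lower, Csf1r, Csf1 and Vegfa. Across all genes tested 45.2% did not overlap (22.7% higher and 22.6% lower), and nothing is read from either count. The median log2 fold change of the 9 was -0.05, beside -0.01 for all genes. Every fold change below is cKO minus WT, levels are CPM on scaled library totals, and since transcript lengths were not used, levels are compared only within a gene.

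**Figure D1:**
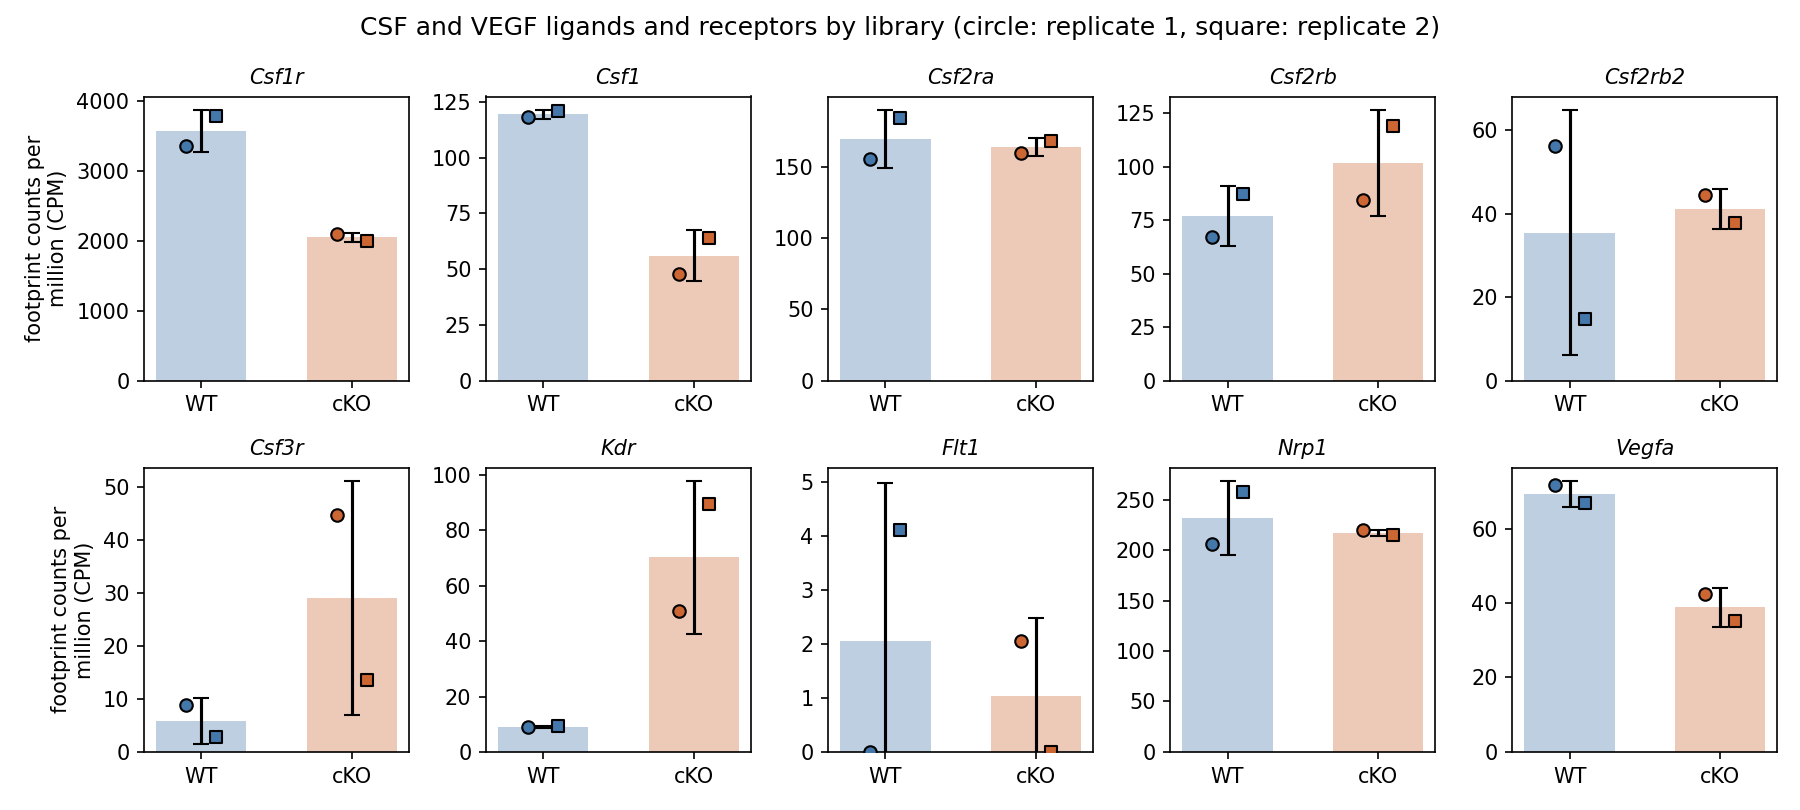
Footprint level in CPM (vertical axes, each from 0) of the 10 genes in WT (blue) and cKO (orange) libraries; bars are means, error bars the SD of 2 libraries, circles replicate 1 and squares replicate 2. Csf1r stands at 3359 and 3788 CPM in WT and at 2102 and 2007 in cKO, Kdr at 8.82 and 9.26 against 50.8 and 89.7, and Csf2ra and Nrp1 overlap.

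Csf1r (ENSMUSG00000024621, chromosome 18, 61233670 to 61265221, plus strand, GRCm39), the receptor gene on which macrophages and osteoclast precursors depend, had 3046 and 11045 counts in WT and 3065 and 2977 in cKO. On scaled totals the cKO libraries stood at 2102 and 2007 CPM and the WT libraries at 3359 and 3788 CPM, or 2054 ± 67.5 and 3574 ± 303 (SD, n = 2 each). Both cKO libraries were below both WT libraries, and the gap between the groups was larger than the distance within either. The level in WT was 1.74 times that in cKO (log2 fold change -0.80, SE 0.11, 95% interval -1.06 to -0.54, adjusted p = 0.0121 by edgeR). Csf1r passed the threshold under each of 12 other settings (other tools, scalings and filters, the replicate number as a block, or 1 library left out), with log2 fold changes from -0.85 to -0.69. It ranked 50th of 7953 genes by p but 1223rd from the lowest by fold change, a modest fold with a small error. In the same libraries the summed monocyte and macrophage markers were at 52332 and 67235 CPM in WT against 39898 and 35315 CPM in cKO, a sum made up mostly of Lyz2, the macrophage lysozyme gene and the 1 of 12 members that fell, and of Adgre1. The 12 did not share a direction, with 6 log2 fold changes above and 6 below 0 and a median of 0.04. The complement genes C1qa, C1qb and C1qc had values of 1.11, 0.68 and 1.17, higher in cKO without overlap and not past the threshold. Lyz2, Adgre1 (-0.40) and Cd68 (-0.26) were lower without overlap. Of all genes tested, 22.7% were higher and 22.6% lower without overlap. The 10 osteoclast markers summed to 12760 and 13560 CPM in WT against 8638 and 8013 CPM in cKO. Of their log2 fold changes 9 of 10 were below 0, with a median of -0.66, beside -0.01 for all genes. In this list 1 gene, Mmp9, passed the threshold (adjusted p = 0.0130 by edgeR), where 0.754% of all genes were lower. Mmp9 missed it in 1 of 12 other settings. The summed stromal markers were at 4513 and 5823 CPM in WT against 627 and 602 CPM in cKO. Their part in the Csf1r difference was not tested.

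Csf1 (ENSMUSG00000014599, chromosome 3, 107648364 to 107667785, minus strand), the gene of the ligand M-CSF, had 70 and 95 counts in cKO and 107 and 352 in WT. These are 48.0 and 64.0 CPM against 118 and 121 CPM. The cKO libraries were both below the WT libraries, and the WT libraries were close to each other. The log2 fold change was -1.09 (SE 0.31, 95% interval -1.81 to -0.38), with an adjusted p of 0.183 by edgeR that missed the threshold. Csf1 passed with limma-voom (adjusted p = 0.0363), which called 7.53% of all genes, and without WT replicate 1 (adjusted p = 0.00684, edgeR), where 27.4% of all genes passed. Set against its receptor within each library, which needs no scaling of the libraries, Csf1 had 22.8 and 31.9 counts per 1000 Csf1r counts in cKO and 35.1 and 31.9 in WT. This ratio was alike in 3 of the 4 libraries, with cKO replicate 1 below the rest. Both genes were selected on these counts, so nothing is concluded from it. Bone marrow stromal cells are a known source of M-CSF, and the stromal markers given above were lower in the same cKO libraries, with 6 of 10 tested members past the threshold, where 0.754% of all genes were lower. In the same list Pdgfrb (log2 fold change 1.87) and Runx2 (2.53), neither past the threshold, had higher levels in both cKO libraries. Runx2, at 4.41 and 0 CPM in WT, entered the test through the cKO libraries alone. The part of stromal cells in the Csf1 values was not tested.

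The GM-CSF receptor genes did not differ beyond the spread between libraries. Csf2ra (chromosome 19, 61212395 to 61216867, minus strand), which encodes the GM-CSF-binding alpha chain, stood at 156 and 184 CPM in WT against 160 and 169 CPM in cKO (log2 fold change -0.05, SE 0.24, 95% interval -0.60 to 0.49, adjusted p = 0.958 by edgeR). The cKO values lay between the WT values, and the sign of the fold change turned when cKO replicate 1 (0.012) or WT replicate 2 (0.094) was left out. Csf2rb (chromosome 15, 78209952 to 78238047, plus strand), the beta chain gene shared by the GM-CSF, interleukin-3 and interleukin-5 receptors, stood at 67.3 and 87.1 CPM in WT against 84.4 and 119 CPM in cKO (log2 fold change 0.39, 95% interval -0.36 to 1.13). Its groups overlapped, and the interval allows a fold change in either direction.

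Csf2rb2 (chromosome 15, 78166707 to 78189921, minus strand), a beta chain gene of mouse that serves interleukin-3, lies next to Csf2rb on the opposite strand and is a close copy of it. It had 65 and 56 counts in cKO and 51 and 43 in WT, or 44.6 and 37.7 CPM against 56.2 and 14.7 CPM. The WT libraries lay on either side of the cKO libraries. The log2 fold change was 0.27 (SE 0.64, 95% interval -1.19 to 1.73), and it was -0.43 without WT replicate 2 and 1.51 without WT replicate 1. Csf2rb2 made up 34.6% (95% exact Clopper-Pearson interval 27.8 to 41.8) and 24.0% (18.7 to 30.0) of the counts of both beta chain genes together in the cKO libraries. In the WT libraries the share was 45.5% (36.1 to 55.2) and 14.5% (10.7 to 19.0). The widest gap in this share was thus between the WT replicates, whose intervals do not overlap. The sources used here do not say how reads that match both genes were counted, so the split between them is uncertain. With both genes summed the log2 fold change was 0.35 (adjusted p = 0.665, edgeR). Counting intervals cover counting error only, since reads from PCR are not independent molecules.

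**Figure D2:**
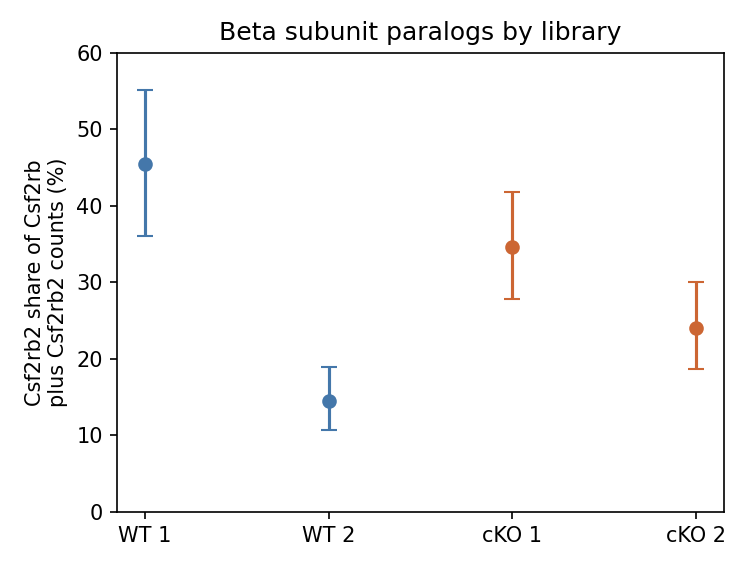
Share of Csf2rb2 in the summed counts of Csf2rb and Csf2rb2 (vertical axis, percent) in each library (horizontal axis); bars are 95% exact binomial intervals. WT replicate 1 at 45.5% and WT replicate 2 at 14.5% lie outside the cKO libraries at 34.6% and 24.0%.

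Csf3r (ENSMUSG00000028859, chromosome 4, 125918343 to 125938233, plus strand), the G-CSF receptor gene of neutrophils and monocytes, had 65 and 20 counts in cKO and 8 and 8 in WT. These are 44.6 and 13.5 CPM against 8.82 and 2.74 CPM. Both cKO libraries were above both WT libraries, but the cKO libraries were far apart and each WT level rests on 8 counts. The log2 fold change was 2.42 (SE 0.98, 95% interval 0.19 to 4.65), with an adjusted p of 0.365 by edgeR, and ranged from 1.27 without cKO replicate 1 to 3.40 without WT replicate 1. WT replicate 2 was below the filter's level of 6.78 CPM, so Csf3r entered the test through the other 3 libraries. The summed neutrophil markers, mostly S100a8 and S100a9, stood at 1362 and 1528 CPM in WT against 879 and 809 CPM in cKO. By edgeR 0 of 5 tested passed in either direction, and 3 had an unadjusted p under 0.05, beside 12.1% of all genes. Ly6g and Prtn3 were at 0 in every library. Mmp8, also of this list, stood at 21.0 and 3.43 CPM in WT against 41.8 and 23.6 CPM in cKO. Csf3, the gene of its ligand G-CSF, had 22 and 22 counts in cKO and 9 and 1 in WT (log2 fold change 1.68, SE 1.48, adjusted p = 0.712).

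Kdr (ENSMUSG00000062960, chromosome 5, 76093487 to 76139118, minus strand), the gene of VEGFR2, the main signalling receptor for VEGF-A in endothelial cells, had 74 and 133 counts in cKO and 8 and 27 in WT. On scaled totals the cKO libraries stood at 50.8 and 89.7 CPM and the WT libraries at 8.82 and 9.26 CPM, or 70.2 ± 27.5 and 9.04 ± 0.309 (SD, n = 2 each). The WT libraries were close to each other and both lie well below the cKO libraries, which themselves differ. Kdr was 7.68 times higher in cKO (log2 fold change 2.94, SE 0.53, 95% interval 1.73 to 4.15, adjusted p = 0.0349 by edgeR), the 69th highest fold change of 7953. It missed the threshold without cKO replicate 2 (log2 fold change 2.50, adjusted p = 0.624), where 0.926% of all genes passed, and passed under the other settings tried. Set against its co-receptor Nrp1 within each library, Kdr had 231 and 417 counts per 1000 Nrp1 counts in cKO and 42.8 and 36.0 in WT. The ratio was thus higher in both cKO libraries without any scaling.

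Most endothelial markers were at 0 in each library, WT and cKO alike. Besides the 10 at 0 everywhere, Erg and Emcn had 2 and 1 counts in all, both in WT replicate 1, Pecam1, which myeloid cells also express, had 1 and 4 counts in cKO and 4 and 36 in WT, and the summed level of the 16 markers stood at 51.8 and 85.4 CPM in WT against 61.0 and 58.6 CPM in cKO. Of the 3 markers tested none passed by edgeR in either direction (0 at an unadjusted p under 0.05): Vwf (log2 fold change 1.14, SE 0.81), Eng (-0.30, SE 0.53) and Esam (-0.96). Esam was below the filter's level in both cKO libraries. Some dendritic cell markers differed between the same libraries. The list, whose counts are mostly those of class II presentation genes, had summed levels of 302 and 404 CPM in WT against 960 and 1116 CPM in cKO. Of 5 tested, 2 rose, both of class II antigen presentation, H2-Aa and Cd74, and none fell, where 0.641% of all genes were higher. Itgax, the gene of the integrin CD11c, lay the other way, at 86.0 and 88.8 CPM in WT against 49.4 and 49.9 CPM in cKO (log2 fold change -0.82, adjusted p = 0.368 by edgeR). The dendritic cell genes Batf3, Xcr1 and Clec9a were at 0 in every library, and Flt3 and Zbtb46 were not tested for want of counts. The part of endothelial or dendritic cells in the Kdr difference was not tested.

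Flt1 (chromosome 5, 147498414 to 147662821, minus strand), the VEGFR1 gene, was near the limit of detection and was not tested. It had 3 and 0 counts in cKO and 0 and 12 in WT. A count of 0 allows a level of up to 2.02 CPM in cKO replicate 2 and 3.31 CPM in WT replicate 1 (3 counts per library). From summed counts the level in WT was 3.08 times that in cKO, with an exact 95% counting interval from 0.831 to 17.0 that includes no difference. Which of the membrane-bound and soluble forms of Flt1 these counts come from cannot be told from counts per gene.

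Nrp1 (chromosome 8, 129085085 to 129229844, plus strand), the neuropilin gene whose product presents VEGF-A to VEGFR2 and also binds class 3 semaphorins, stood at 206 and 258 CPM in WT against 219 and 215 CPM in cKO. The cKO libraries lay between the WT libraries, with a log2 fold change of -0.10 (SE 0.22, 95% interval -0.60 to 0.40, adjusted p = 0.907 by edgeR). Its paralog Nrp2 was as close, at 1422 and 1509 CPM in WT against 1440 and 1374 CPM in cKO (log2 fold change -0.06, SE 0.12). Vegfa (ENSMUSG00000023951, chromosome 17, 46327919 to 46343295, minus strand), the ligand gene, had 62 and 52 counts in cKO and 65 and 195 in WT, or 42.5 and 35.1 CPM against 71.7 and 66.9 CPM. Both cKO libraries were below both WT libraries, and each pair was tight. The log2 fold change was -0.83 (SE 0.38, 95% interval -1.70 to 0.03), with an adjusted p of 0.429 by edgeR, and it was negative under all 12 other settings without passing under any. Per 1000 Nrp1 counts, Vegfa had 194 and 163 in cKO and 348 and 260 in WT. The ligand genes Csf1 and Vegfa were therefore both at lower levels in the cKO libraries, neither past the threshold, while the VEGF receptor gene Kdr was higher and the M-CSF receptor gene Csf1r lower.

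**Figure D3:**
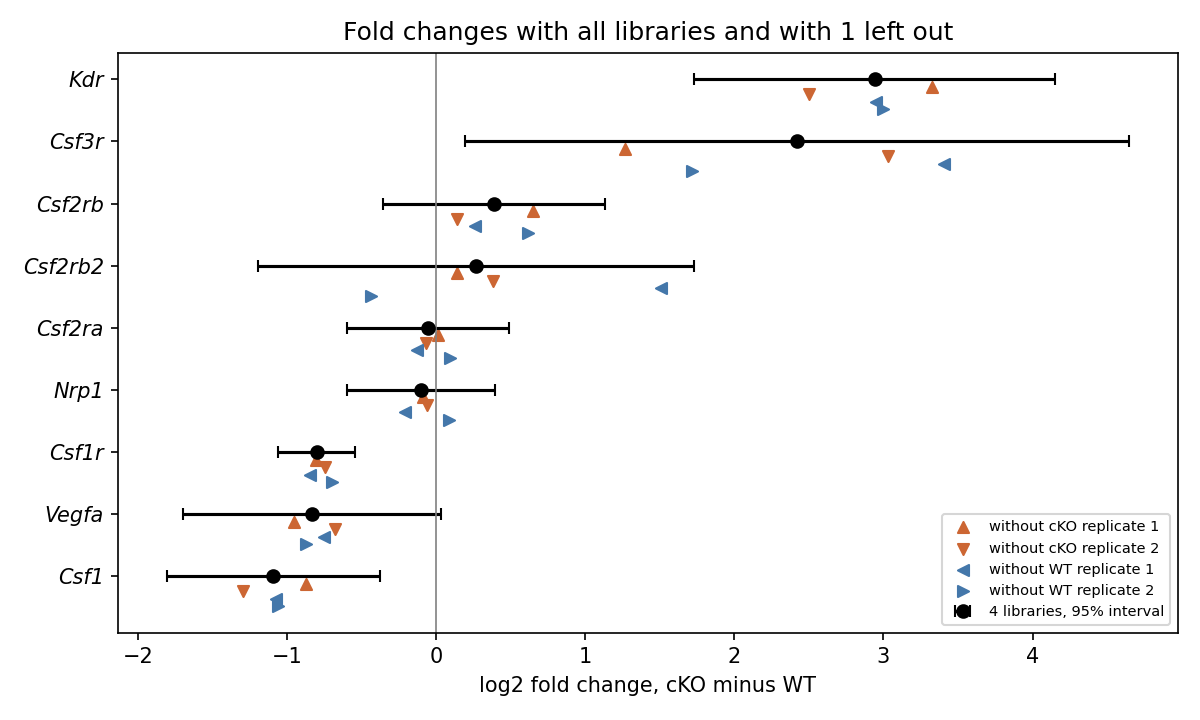
Log2 fold change, cKO minus WT (horizontal axis), of the 9 tested genes with all 4 libraries (black, 95% interval) and with each library left out (triangles). Csf1r stays between -0.85 and -0.69 and Kdr between 2.50 and 3.32, while Csf2rb2 runs from -0.43 to 1.51 and Csf3r from 1.27 to 3.40.

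The genes whose levels followed Csf1r and Kdr most closely over the 4 libraries were found among 4237 genes whose log2 CPM averaged 5 or more, by the Euclidean distance between log2 CPM profiles centred on their own means. With 4 libraries this is a description only. Nearest to Csf1r were Cst3, a cysteine protease inhibitor gene (distance 0.05, 708 and 642 CPM in cKO against 1104 and 1260 in WT), Cox8a, a respiratory chain gene (0.07), and Mtarc2, a mitochondrial reductase gene (0.08). Nearest to Kdr, though at greater distances, were the class II gene H2-Aa (0.36), H2-M2 (0.43) and the chemokine gene Cxcl3 (0.46). Like Kdr, all 3 were higher in cKO replicate 2 than in cKO replicate 1 and far lower in both WT libraries; H2-Aa stood at 26.5 and 24.7 CPM in WT against 180 and 247 CPM in cKO.

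None of the other genes tested in the 2 pathways passed the threshold. Lists of 129 further genes in 8 groups, which hold none of the 10 genes above, had 92 members with enough counts, and 0 rose and 0 fell by edgeR, where 1.40% of all genes passed. At an unadjusted p under 0.05 there were 12 of the 92, beside 12.1% of all genes. DESeq2, which called 2.79% of all genes, called 1 of them, and limma-voom called 5, among them Pim1, Hif1a and Pik3r1, which were higher, and Src, which was lower. Groups did not overlap for 26 that were higher and 19 that were lower in cKO, beside 22.7% and 22.6% of all genes, and the median log2 fold change was 0.14. Without WT replicate 2, 3 rose, Pim1 and Ptpn6 among them, and none fell, where 5.48% of all genes passed. Without WT replicate 1, 18 of 99 were higher and 13 lower, where 27.4% of all genes passed.

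Among partners of the CSF family, Il34, the gene of the other Csf1r ligand, was at 0 in every library, as were Il3, Il5 and Il5ra, and Csf2, the GM-CSF gene, had 1 count in all. Il3ra, the interleukin-3 alpha chain gene, had 37 and 36 counts in cKO and 18 and 30 in WT (log2 fold change 0.75, SE 0.70, adjusted p = 0.735 by edgeR). Counts for most ligands of these receptors other than M-CSF were thus few or none.

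Of 33 tested genes of signalling next to Csf1r, 0 passed by edgeR (3 at an unadjusted p under 0.05, beside 12.1% of all genes). Their median log2 fold change was 0.14. Src, the tyrosine kinase gene needed for osteoclasts to resorb bone, stood at 99.3 and 241 CPM in WT against 76.1 and 69.4 CPM in cKO (log2 fold change -1.24, SE 0.41, adjusted p = 0.237), so most of its gap came from WT replicate 2. Pik3r1, the regulatory subunit gene of phosphoinositide 3-kinase, pointed the other way, at 97.1 and 49.7 CPM in WT against 138 and 138 CPM in cKO (0.95, SE 0.36). In the JAK-STAT arm, 0 of 12 passed by edgeR (2 at an unadjusted p under 0.05, beside the same share) with a median of 0.17. Pim1, a survival kinase gene induced by cytokine receptors, stood at 56.2 and 62.4 CPM in WT against 141 and 130 CPM in cKO (1.18, SE 0.29, adjusted p = 0.119). Socs3, which feeds back on G-CSF signalling, overlapped between the groups (0.16, SE 0.39).

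The list of Csf1r transcription factors and M-CSF response genes had a median of -0.50, with 9 of 14 tested below 0. The median was -0.25 without cKO replicate 2 and -0.34 without WT replicate 1. By edgeR 0 passed the threshold, and 4 had an unadjusted p under 0.05, beside 12.1% of all genes. Spi1, the gene of PU.1, which drives Csf1r transcription, stood at 204 and 227 CPM in WT against 147 and 118 CPM in cKO (log2 fold change -0.70, SE 0.24, adjusted p = 0.272). Its groups did not overlap, as for 45.2% of all genes tested, and its 95% interval ran from -1.26 to -0.15. The part of Spi1 in the Csf1r difference was not tested. Maf, the gene of a macrophage transcription factor, had a log2 fold change of -1.07 (SE 0.46). Ccnd1, the gene of cyclin D1, which M-CSF induces in dividing macrophages, had 0 and 1 counts in cKO and 14 and 53 in WT, a ratio of 51.6 in favour of WT with an exact 95% counting interval from 8.94 to 2066 (adjusted p = 0.212 by edgeR). That interval covers counting error and not the spread between libraries. Ccnd1 entered the test through the WT libraries alone, the group where it was high, so nothing is read from its difference. Runx1, which also acts on the Csf1r gene, was uneven within both groups, at 14.3 and 1.03 CPM in WT against 9.60 and 22.2 CPM in cKO.

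In Csf1r shedding the protease ADAM17 releases the outer part of the receptor and gamma-secretase cuts the rest. Of 7 tested genes of this list, 0 passed by edgeR (1 at an unadjusted p under 0.05, beside 12.1% of all genes). The median was 0.32. Adam17 stood at 393 and 264 CPM in WT against 428 and 482 CPM in cKO (0.48, SE 0.22, adjusted p = 0.435), and Rhbdf1, the gene of an ADAM17 partner, had 6 and 8 counts in cKO and 19 and 102 in WT (-2.55, SE 0.82). Rhbdf1 was below the filter's level in both cKO libraries and entered the test through the WT libraries alone. Footprint counts do not measure how much receptor is shed.

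On the VEGF side, 0 of 7 tested ligand and neuropilin partner genes passed by edgeR (0 at an unadjusted p under 0.05), with a median of 0.18. Without cKO replicate 1 the median was -0.17, over 8 tested genes. Plxnd1, a semaphorin receptor gene, stood at 266 and 180 CPM in WT against 315 and 290 CPM in cKO (0.45, SE 0.24), and Pgf, the gene of placental growth factor, a ligand of VEGFR1, had 31 and 13 counts in cKO and 9 and 0 in WT. Of 5 tested regulators of Vegfa, 0 passed by edgeR (1 at an unadjusted p under 0.05, beside 12.1% of all genes). Their median of 0.33 depended on which genes were tested. With 5 tested it was 0.32 with upper-quartile factors and 0.40 with limma-voom. With 7 tested it was -0.41 without cKO replicate 1, -0.39 without cKO replicate 2 and -0.84 without WT replicate 1. It was 0.0012 without WT replicate 2 (6 tested) and -0.031 with no filter (8 tested). These are not medians of the same genes. Hif1a, the gene of the hypoxia-inducible factor that drives Vegfa transcription, stood at 918 and 377 CPM in WT against 1021 and 958 CPM in cKO (0.62, SE 0.34, adjusted p = 0.501), so that only WT replicate 2 was far from the rest. Egln3, a hypoxia-inducible prolyl hydroxylase gene, had 14 and 16 counts in cKO and 17 and 132 in WT (-1.67, SE 0.71).

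Of 12 tested genes of other receptor tyrosine kinases, 0 passed by edgeR (1 at an unadjusted p under 0.05, beside 12.1% of all genes). Their median was -0.07, without a stable sign. It was 0.22 without cKO replicate 1, 0.55 without WT replicate 1 and 0.24 with the replicate number as a block. With limma-voom it was 0.29, and with a CPM of at least 5 in all libraries, where 6 were tested, it was 0.081. Met, the receptor gene for hepatocyte growth factor, stood at 176 and 112 CPM in WT against 218 and 203 CPM in cKO (0.56, SE 0.28), and Mst1r, the gene of its relative RON, had 29 and 34 counts in cKO and 11 and 2 in WT. Ryk, the gene of a Wnt co-receptor, had 0 and 0 counts in cKO and 11 and 67 in WT, at least 20.0-fold lower in cKO against a floor of 3 counts over the group (adjusted p = 0.144 by edgeR). It too entered the test through the WT libraries alone. Kit, the stem cell factor receptor gene and a close relative of Csf1r, had 4 and 1 counts in cKO and none in WT. Fgfr3, Fgfr4, Tek, Tie1 and Tyro3 were at 0 in every library.

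**Figure D4:**
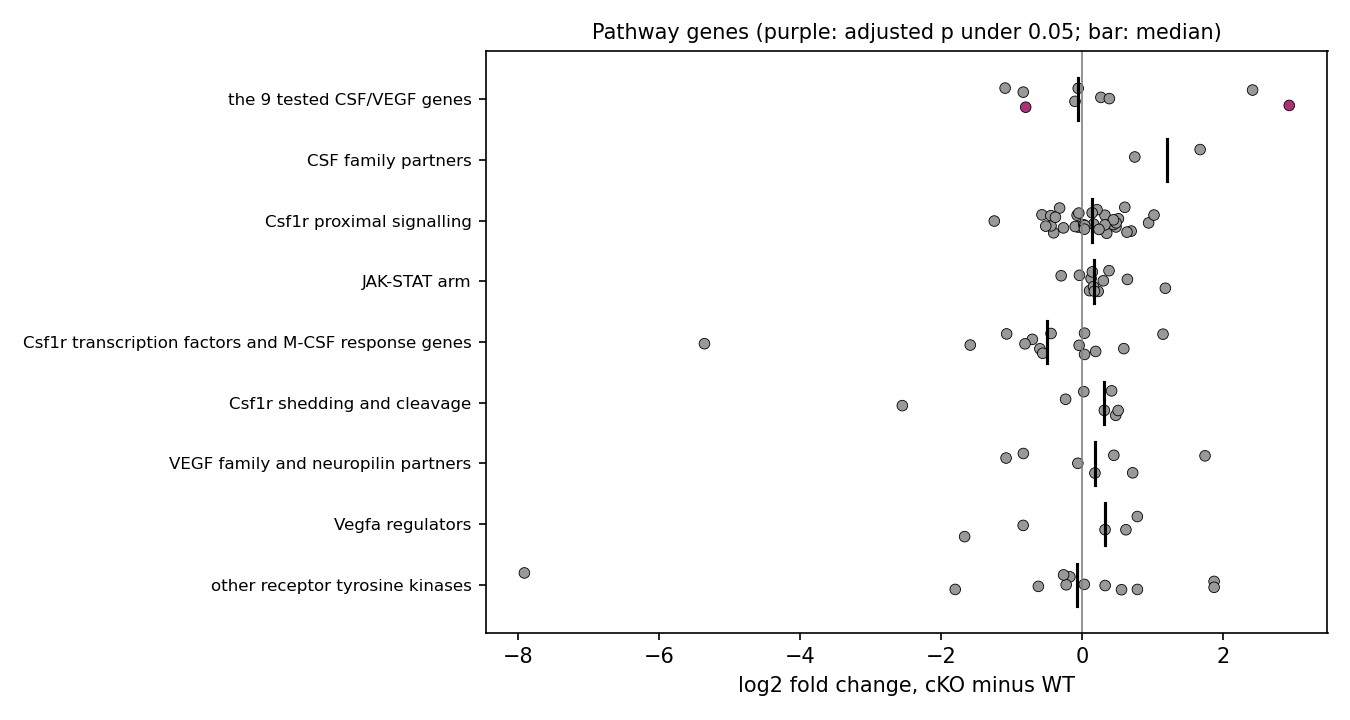
Log2 fold change, cKO minus WT (horizontal axis), of the 9 tested CSF and VEGF genes and of the tested members of 8 pathway lists (rows); each point is a gene, bars are medians and purple marks an adjusted p under 0.05 by edgeR. Purple points appear only in the top row (Csf1r and Kdr); the points at the far left are Ccnd1 and Ryk, with 1 and 0 counts in cKO, whose fitted values depend on the prior count.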

How the data were processed

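The authors deposited raw counts of ribosome-protected fragments per gene in 1 table, per the file headers. Per the submitters' processing notes, the tools were HTSeq, STAR, Bowtie and fastp, without roles, and the build GRCm39 (mm39). The sources used here do not give the strand setting or the handling of footprint lengths, duplicates and multiply matching reads. Count columns were matched to samples by description, and filterByExpr (minimum count 10, minimum total 15) kept 7953 of 22417 genes. Counts were scaled by TMM factors and tested with edgeR 4.0.16 (R 4.3.3), robust quasi-likelihood, genotype as the only term, Benjamini-Hochberg over all genes. Alternatives were DESeq2 1.42.0, limma-voom (limma 3.58.1), other scalings and filters, the replicate number as a block and each library left out. Libraries differed pairwise by more than sampling noise. Deviations of same-numbered libraries from their group means were not correlated across genes (-0.02). With 2 libraries per group this cannot exclude a shared batch or preparation. The labels give no pairing, and the main fit used none. The pipeline was tested on simulated counts. The genes, lists and the rule for genes named (all 10 genes, list members past the threshold and up to 4 more per list by p; others were added after their values were seen, among them Nrp2, Socs3, Runx1, Kit, Csf2, Itgax, Mmp8, Adgre1, Runx2, Pdgfrb, the C1q genes and the endothelial markers) were chosen with earlier results of these data known. CPM uses TMM-scaled totals, and log2 CPM used a prior count of 2. Some list genes are not reported here by name.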

Additional observations from a re-analysis of the deposited data

How the results depend on the processing

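Of all genes tested, 51 were higher and 60 lower by edgeR. The counts were 114 and 108 with DESeq2, 412 and 187 with limma-voom, 184 and 179 with no filter beyond 1 count, and 94 and 97 with a CPM of at least 5 in all libraries; leaving out single libraries gave 35 to 1354 higher and 38 to 1066 lower, the highest without WT replicate 1, where the spread comes from the cKO pair alone. Of the 9 CSF and VEGF genes, 1 higher and 1 lower became 1 and 2 with limma-voom. The 92 pathway genes, with 0 in either direction, gave 1 higher with DESeq2, 4 higher and 1 lower with limma-voom, 2 and 2 with no filter, 1 higher with a CPM of at least 5, and 0 to 18 higher and 0 to 13 lower without single libraries. The cause was not tested. The other scalings (RLE, upper-quartile, total counts) kept all these counts within 1.5 times. The fit with the replicate number as a block called 67 higher and 76 lower and changed no call among the CSF, VEGF and pathway genes. In all, 4 fold changes turned sign: Csf2ra (0.012 without cKO replicate 1 and 0.094 without WT replicate 2, and down to -0.13), Csf2rb2 (-0.43 without WT replicate 2, and up to 1.51) and Nrp1 (0.091 without WT replicate 2, and down to -0.21). Summing Csf2rb and Csf2rb2, chosen after seeing the data, changed no call. Flt1, at 12 counts in WT and 3 in cKO, and Csf3r, at 8 counts in each WT library, are limited by depth.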
